A study of Rattus norvegicus with 8 samples.

Results

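The 7 genes described here encode calprotectin and other proteins typical of neutrophils, namely S100a8, S100a9, Lcn2, Csf3r, Mmp8, Ncf1 and Mpo. They were measured in livers of male Wistar rats whose cirrhosis had been induced by inhaled carbon tetrachloride (CCl4), a liver toxin. Members were the probe sets to which the platform annotation gives 1 gene symbol that is one of these names. This found 6 probe sets, 1 each for 6 of the 7 genes, among 31042 probe sets in all, and Mpo, myeloperoxidase, matched none and is not analysed here. All 8 rats had CCl4 cirrhosis and drank water with phenobarbital (0.3 g/L), an inducer of liver enzymes, and no liver without cirrhosis is among the samples used here. By the sample labels 4 rats received vehicle and 4 an antiangiogenic treatment, with 1 Affymetrix Rat2302 array listed for each. The series description calls the vehicle rats non-treated and speaks of angiogenesis inhibitors, and the labels name neither the compound and its dose nor the age of the rats. The series title names the inflammatory infiltrate among its interests, which is the question that these genes bear on.

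Neutrophils are short-lived white cells that are made in bone marrow and enter injured liver from the blood. S100a8 and S100a9 encode small calcium-binding proteins that pair as calprotectin, the main protein of neutrophil cytosol, which withholds zinc and manganese from microbes and acts as an alarm signal outside cells. Monocytes make calprotectin as well, and Lcn2, which encodes lipocalin 2, a protein that binds bacterial iron carriers, is made both by neutrophils and by injured hepatocytes. Transcripts of many granule enzymes are made in marrow precursors and are low in mature neutrophils of tissues. In whole liver tissue, fewer cells of a type and less RNA per cell cannot be told apart.

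Each value is an RMA (robust multi-array average) signal of a probe set on the log2 scale. Differences are treated minus vehicle, and ± gives the SD of the 4 arrays of a group. The labels do not describe the rats of a group further, and p-values of group differences set them against the spread between these arrays. The arrays labelled vehicle 4 and treated 3 were nearly identical, with r = 0.996 across probe sets against 0.956 to 0.988 in the 27 other pairs of arrays. Whether both arrays come from 1 liver or an array carries the wrong group cannot be told from the values used here. Both were kept under their labels, every n, SD and p over 8 arrays counts them as separate rats, and each member is also given without both. The arrays were sorted here into 3 groups by cuts on the signals of BioB and BioC, which are spiked-in controls from bacteria. The first held vehicle 1 and treated 1, where BioC exceeded BioB by more than 1 log2 unit (1.48 and 1.32). The third held vehicle 4 and treated 3, with the highest BioB (8.97 and 8.87). The second held the other 4 arrays, with BioB from 7.43 to 8.08. These are called hybridization groups below. The sample labels name no hybridization batch, and whether the groups were separate batches was not tested. Hepatocyte markers were bright on all arrays (list means 13.05 to 13.31), with 0 of 11 measured genes dim, which here means that both group means lay no higher than the 25th percentile of the arrays (3.74 to 3.91). Of the 8 measured neutrophil markers, 4 were dim in both groups, namely Csf3r, Mmp8, Cxcr2 and Camp, so that the bright members are not shown by these data to come from neutrophils.

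None of the members passed the threshold between the groups. Calprotectin and lipocalin 2 varied several-fold from liver to liver inside both groups, and that spread was larger than the difference between the group means. Of the 6 probe sets, 0 had an adjusted p under 0.05 in limma with Benjamini-Hochberg adjustment over all probe sets (smallest adjusted p = 0.979), against 0% of all 31042. At an unadjusted p under 0.05, 0 of 6 differed, against 3.93% of all probe sets (1220), of which 2.04% of all were lower and 1.89% higher. The groups overlapped at all 6, while they did not overlap at 1.67% of all probe sets (518). Treated livers had the lower mean at 4 of the 6 members and at 45.3% of all probe sets. Leaving out any 1 array, or both near-identical arrays, also left 0 of 6 called.

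**Figure D1:**
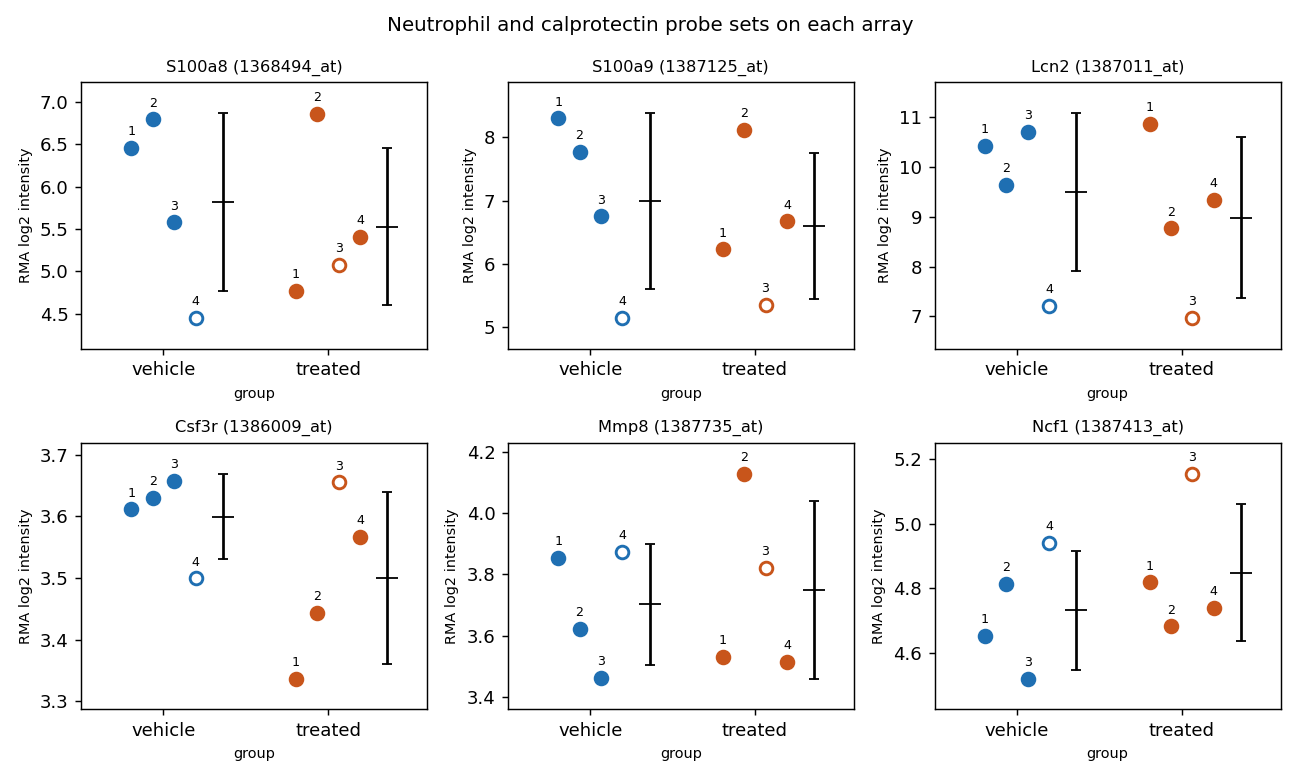
RMA log2 intensity of the 6 probe sets on each array, by group, with the replicate number of each array and, in black, the group mean with 1 SD. Open circles mark the near-identical vehicle 4 and treated 3, which hold the lowest values of S100a9 and Lcn2 among the 8 arrays, and the groups overlap in every panel. Each panel has its own axis range.

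S100a8 (1368494_at) stood at 6.46, 6.79, 5.58 and 4.45 on vehicle 1 to 4 and at 4.77, 6.86, 5.08 and 5.41 on treated 1 to 4. Treated 2 and vehicle 2 were the highest arrays and vehicle 4 the lowest, so that each group held both high and low livers. The vehicle mean was 5.82 ± 1.05 and the treated mean 5.53 ± 0.92, or 1.22-fold lower on treated arrays (difference −0.29, SE 0.58, 95% interval −1.60 to 1.01, limma adjusted p = 0.987). The interval allows for anything from a 3.02-fold lower to a 2.02-fold higher level. The sign turned without vehicle 2 (0.031), and the difference was −0.75 when vehicle 4 was left out and −0.60 without both near-identical arrays. Within the hybridization groups it was −1.69 for the first (1 array a group), −0.05 for the second and 0.63 for the near-identical pair. The near-identical arrays themselves stood 0.63 apart at S100a8, and 0.770% of all probe sets differed by at least that much between them.

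S100a9 (1387125_at), the partner of S100a8, stood at 8.30, 7.77, 6.75 and 5.15 on vehicle 1 to 4 and at 6.23, 8.12, 5.36 and 6.67 on treated 1 to 4. Vehicle 1, treated 2 and vehicle 2 were high, and the near-identical arrays were the lowest of all. Between its highest and lowest array the level ranged 8.91-fold, or 3.16 log2 units, which is percentile 98.9 of the ranges of all probe sets. A range of at least 2 log2 units was found at 4.76% of all probe sets. The means were 6.995 ± 1.39 and 6.59 ± 1.15, a difference of −0.40 (SE 0.74, 95% interval −2.08 to 1.28, limma adjusted p = 0.987) that is smaller than the SD of either group. Leaving out vehicle 1 gave 0.036, leaving out treated 3 gave 0.012 and leaving out vehicle 4 gave −1.02, while it was −0.60 without both near-identical arrays. Within the hybridization groups it was −2.07, 0.13 and 0.21.

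Lcn2 (1387011_at) had the widest range of the members, 3.90 log2 units or 14.9-fold over the 8 arrays. It stood at 10.43, 9.64, 10.71 and 7.21 on vehicle 1 to 4 and at 10.87, 8.77, 6.97 and 9.34 on treated 1 to 4. The order of the arrays was not that of calprotectin, since treated 1 was the highest array for Lcn2 and ranked 6 of 8 for S100a9, while treated 2 ranked 6 for Lcn2 and 2 for S100a9. The near-identical arrays were again the lowest. The means were 9.50 ± 1.59 and 8.98 ± 1.61 (difference −0.51, SE 0.93, 95% interval −2.61 to 1.59, limma adjusted p = 0.987). The difference was 0.16 without treated 3 and −1.27 without vehicle 4, and −0.60 without both. Within the hybridization groups it was 0.44, −1.12 and −0.25.

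**Figure D2:**
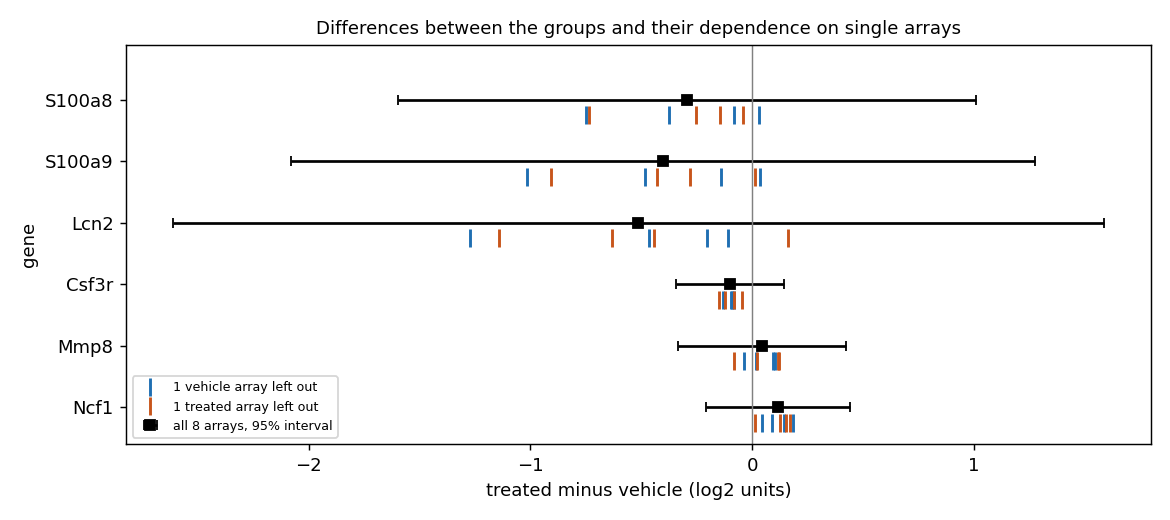
Differences of the 6 genes, treated minus vehicle in log2 units, with 95% intervals of limma over all 8 arrays (squares) and the values with 1 vehicle array (blue) or 1 treated array (orange) left out. Every interval includes 0, and the bars of S100a8, S100a9, Lcn2 and Mmp8 lie on both sides of 0.

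The other 3 members were dim or nearly flat. Csf3r (1386009_at), the receptor for the growth factor that drives neutrophil production, lay between 3.50 and 3.66 on the vehicle and between 3.34 and 3.65 on the treated arrays, at or below the dim level throughout. Its difference was −0.10 (95% interval −0.34 to 0.14, limma adjusted p = 0.979), and −0.18 without both near-identical arrays. Mmp8 (1387735_at), the collagenase stored in neutrophil granules, was dim as well on average, between 3.46 and 3.87 in vehicle and between 3.52 and 4.13 in treated livers, with the highest value on treated 2. Its difference was 0.05 (−0.33 to 0.42, limma adjusted p = 0.996), turning to −0.035 and −0.081 when vehicle 3 or treated 2 was left out, and 0.08 in the absence of the near-identical pair. Ncf1 (1387413_at), the p47phox organizer of the phagocyte oxidase, lay between 4.52 and 4.94 in vehicle and between 4.68 and 5.15 in treated livers. Its highest values were on the near-identical arrays, where calprotectin and Lcn2 were low. The means were 4.73 ± 0.18 and 4.85 ± 0.21 (difference 0.12, −0.21 to 0.44, limma adjusted p = 0.979), and the difference was 0.08 without both near-identical arrays and 0.02 without treated 3.

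The livers with the higher S100a8 were mostly those with the higher S100a9. With the near-identical arrays averaged to 1 point, S100a8 and S100a9 correlated over 7 points with Pearson r = 0.934 (exact permutation p = 0.00337, two-sided, adjusted p = 0.0506 over the 15 pairs of members) and Spearman rho = 0.893 (exact permutation p = 0.0123, adjusted p = 0.184). The relation missed the threshold after adjustment, and r was 0.946 without vehicle 2 and treated 2, the points farthest from the median of S100a8. With all 8 arrays as separate points r was 0.931 (exact permutation p = 0.00253, adjusted p = 0.0380). Neither group nor hybridization group held 6 independent arrays, so that no value within them is given. S100a9 and Lcn2 had r = 0.388 (exact permutation p = 0.404, adjusted p = 0.768) and rho = 0.107 (exact permutation p = 0.840, adjusted p = 0.900), and r was −0.77 without the near-identical pair and vehicle 1, so that its sign rests on those points. Over the same 7 points Lcn2 and Ncf1 had r = −0.71 (exact permutation p = 0.0821, adjusted p = 0.616) and rho = −0.32 (exact permutation p = 0.498, adjusted p = 0.834), with r = −0.62 without treated 1 and the near-identical pair. In none of the 15 pairs did the adjusted p over 7 points fall under 0.05 (0).

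**Figure D3:**
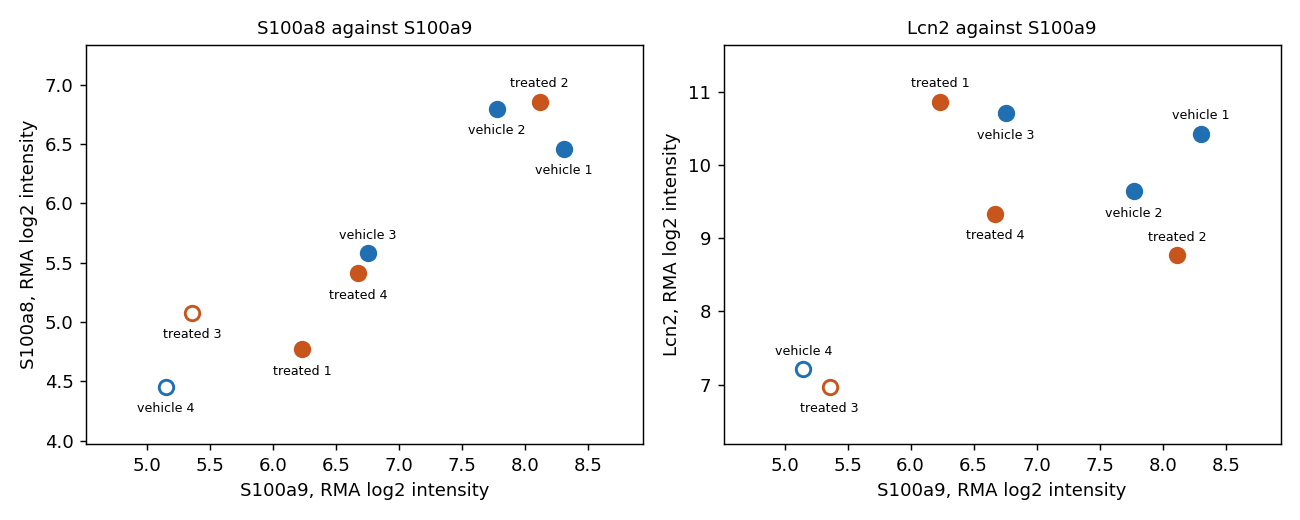
S100a8 (left) and Lcn2 (right) against S100a9, each in RMA log2 intensity, with 1 circle per array, blue for vehicle and orange for treated, open for the near-identical vehicle 4 and treated 3. S100a8 rises with S100a9 over the arrays of both groups, whereas treated 1 and vehicle 3 combine high Lcn2 with intermediate S100a9.

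Among 1367 genes with a mean of at least 6 and an SD of at least 0.5, those whose values over the 8 arrays were most like a member were listed as a description, and the arrays include the near-identical pair. For S100a8 they were S100a9 (r = 0.931), Birc3, an inhibitor of apoptosis (r = 0.917), and Spry2, which dampens receptor tyrosine kinase signalling (r = 0.911). Birc3 (r = 0.940) and Spry2 (r = 0.904) also led for S100a9, followed by Steap4, a metalloreductase (r = 0.900). The genes most like Lcn2 were Apol3l1 (r = 0.947), the complement gene C8b (r = 0.919) and the helicase gene Rtel1 (r = 0.916). With the near-identical arrays averaged, these values were 0.934, 0.932 and 0.911 for S100a8, 0.922, 0.874 and 0.888 for S100a9, and 0.927, 0.878 and 0.872 for Lcn2. For the dim or flat members the leading genes were Ly86 for Csf3r (r = 0.912), Hao2 for Mmp8 (r = 0.918) and Gpd1 for Ncf1 (r = 0.920). Each r is the highest picked from many genes over 8 arrays. Dim or flat members thus reached similar values, and these likenesses do not set S100a8, S100a9 or Lcn2 apart.

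Promoters are shown for the bright members S100a9 and Lcn2, whose arrays ranked differently, so that their start regions can be set side by side. Each runs from 250 bases before to 50 after the annotated start in RefSeq (build GRCr8), 5′ to 3′ on the gene's strand, with matches in capitals to any of the letters searched on both strands, which were TTGCNNAA for C/EBP, GAGGAA for PU.1, the NF-kB consensus (GGG, any 5 bases, CC) and TTCNNNGAA for STAT factors. S100a9 is at chr2:178490573-178490872 on the minus strand and Lcn2 at chr3:36081731-36082030 on the minus strand.
S100a9: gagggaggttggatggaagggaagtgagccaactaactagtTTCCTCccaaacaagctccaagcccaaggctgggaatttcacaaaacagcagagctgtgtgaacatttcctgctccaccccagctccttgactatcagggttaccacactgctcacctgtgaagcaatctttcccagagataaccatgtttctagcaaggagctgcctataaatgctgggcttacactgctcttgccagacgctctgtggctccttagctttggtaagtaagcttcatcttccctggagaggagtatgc
Lcn2: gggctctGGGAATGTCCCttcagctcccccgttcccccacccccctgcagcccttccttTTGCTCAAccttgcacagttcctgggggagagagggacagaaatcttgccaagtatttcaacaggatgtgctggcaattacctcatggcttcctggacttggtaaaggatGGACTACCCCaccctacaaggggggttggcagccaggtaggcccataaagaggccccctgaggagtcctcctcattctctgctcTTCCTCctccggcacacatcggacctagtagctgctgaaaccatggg
With the start counted as position 0, the S100a9 window held 1 match, to the PU.1 letters at −209. The Lcn2 window held 5, to the C/EBP letters at −191, to those of NF-kB at −243, −242 and −81, of which the first and second overlap, and to those of PU.1 at 3. Of all 33469 promoter windows of this length, 10.6% held the C/EBP letters, 27.6% those of PU.1, 47.3% those of NF-kB and 8.87% those of STAT. A match here is a string of letters and was not tested as a binding site. Promoters of 6 of the 7 genes were in the table.

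Genes of the pathways around the members are given by lists, each gene by its brightest probe set. Over all 14217 genes 0 passed the adjusted threshold, 4.75% had an unadjusted p under 0.05, 48.4% were lower and the median difference was 0.01. Except where stated, genes given with values are among the 3 of their list with the smallest unadjusted p. Their intervals and lack of overlap follow in part from that choice. Phagocyte oxidase subunits and partners other than the member Ncf1 were lower in treated livers at 7 of 7 measured genes (median −0.34), 2 of them at an unadjusted p under 0.05. With Ncf1, which was higher, 7 of 8 were lower (median −0.33). The median of the 7 was −0.46 without treated 4 and −0.17 without treated 1. The 2 were Rac2, the small GTPase of the oxidase (8.30 ± 0.59 and 7.49 ± 0.39, difference −0.81, 95% interval −1.49 to −0.13), and Ncf4, its p40phox subunit (6.48 ± 0.13 and 6.15 ± 0.23, difference −0.33, −0.64 to −0.02), whose groups did not overlap. Both had a limma adjusted p of 0.979, as had the others named in this paragraph. Among neutrophil surface receptors 12 of 14 were lower, and the median was −0.22 (−0.44 without treated 4 and −0.12 without treated 1). C5ar1, the receptor for the complement fragment C5a, averaged 7.53 ± 0.36 and 6.60 ± 0.52 (difference −0.93, −1.55 to −0.31), and Fcgr3a, an IgG receptor, 6.28 ± 0.37 and 5.63 ± 0.23 (difference −0.65, −1.10 to −0.20). C5ar1, Fcgr3a and Rac2 are expressed by macrophages too, and macrophage and Kupffer cell markers were lower at 9 of 10 (median −0.62, list means 7.93 to 8.72 in vehicle and 6.92 to 8.49 in treated livers, 0 of 10 dim), whose part in these values was not tested.

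Proteins of primary granules were lower at 5 of 7, and their median of −0.25 turned to 0.044 without vehicle 2 and was −0.43 without vehicle 1. The gene at that median was RatNP-3b, which was dim, and 3 of the 7 genes, RatNP-3b included, were highest on vehicle 2. Lyz2, lysozyme, averaged 12.13 ± 0.90 and 11.26 ± 0.41, and the part of macrophages in this was not tested. Secondary and tertiary granule proteins were lower at 7 of 11 (median −0.08, and −0.02 without vehicle 3). The gene at that median was Arg1. Arg1 and Hp, which the acute phase list holds too, were as bright as hepatocyte markers, and their cell source was not tested. Among the secondary and tertiary granule genes, Fcnb, ficolin B, averaged 4.40 ± 0.14 and 4.03 ± 0.15 without overlap (difference −0.38, −0.65 to −0.11, limma adjusted p = 0.979), while Camp, Mmp9 and Padi4 were dim. The list of granulocyte transcription factors also held the clock gene Per3, and without it 3 of 8 genes were lower (median 0.037; with Per3 3 of 9, 0.05, turning to −0.0089 without treated 2), with Runx1 at 7.03 ± 0.75 and 6.14 ± 0.59 and Cebpa at 9.31 ± 0.80 and 10.03 ± 0.50. Of the other S100 genes 10 of 11 were lower (median −0.21, 0 at an unadjusted p under 0.05), and the list also held S100pbp, which encodes an S100P-binding protein and with which 11 of 12 were lower (median −0.19, and −0.31 without treated 4). Among the lower genes were S100a11 (10.41 ± 0.56 and 9.36 ± 1.29, difference −1.05, −2.36 to 0.27) and S100a6 (8.21 ± 0.69 and 7.36 ± 0.88, difference −0.85, −1.90 to 0.20). The array order of the list was not that of calprotectin, since 5 of the 12 were lowest on treated 2, where S100a8 was highest, and 0 were highest there. Genes of calprotectin reception were lower at 6 of 13 (median 0.03, and −0.039 without treated 1), with Ly96, the partner of Tlr4, at 8.36 ± 0.49 and 7.77 ± 0.76 and Cd14, a co-receptor of Tlr4, at 9.87 ± 0.61 and 10.75 ± 1.02.

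**Figure D4:**
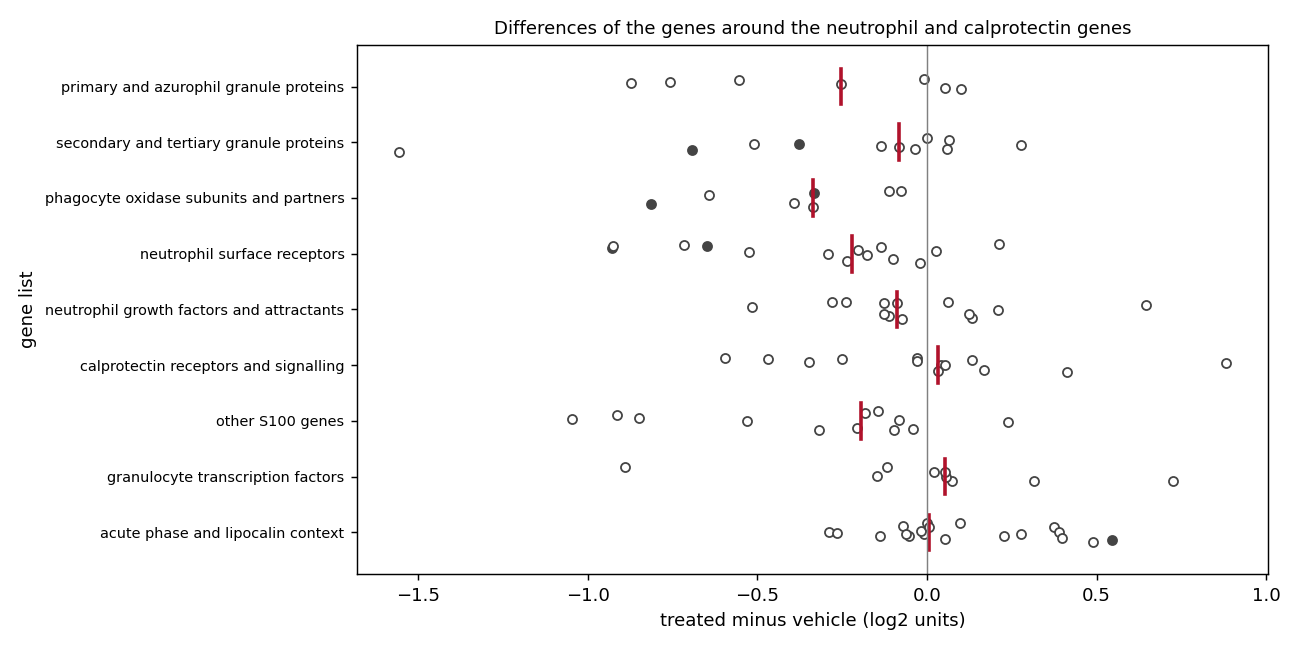
Difference of each measured gene, treated minus vehicle in log2 units, by gene list, with red bars at the list medians and filled circles at an unadjusted p under 0.05. The 7 oxidase genes other than Ncf1, which is not in this plot, and 11 of the 12 genes of the S100 list, S100pbp included, lie below 0, and none of the genes passed the adjusted threshold. Vertical positions within a list are spread at random.

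In the acute phase and lipocalin list 8 of 19 genes were lower, and the median was 0.01 (−0.062 without treated 2 and 0.18 without vehicle 1). Slc22a17, which encodes a proposed receptor for lipocalin 2, stood at 7.14, 7.19, 6.90 and 7.45 on vehicle 1 to 4 and at 8.08, 7.61, 7.48 and 7.69 on treated 1 to 4. Every treated array was above every vehicle array, and the difference was 0.55 (95% interval 0.17 to 0.92, limma adjusted p = 0.979). Slc22a17 is named because its unadjusted p was the smallest of the 19 genes, and the groups did not overlap at 1.67% of all probe sets. The near-identical arrays were the closest neighbours across the groups, at 7.45 and 7.48. Hamp, hepcidin, averaged 12.52 ± 0.52 and 13.01 ± 0.33.

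Growth factors and attractants of neutrophils were lower in 8 of 13 cases, 0 of them at an unadjusted p under 0.05, and their median of −0.09 lay between −0.19 without treated 2 and 0.17 without treated 1. They set 1 liver apart instead. Of the 13 genes, 8 had their highest value on treated 2, the array on which S100a8 was highest and S100a9 second highest, and 7 had their lowest on treated 1. Low values on treated 1 were not particular to this list, since 9 of 10 macrophage and Kupffer markers were lowest there, against 1 of 7 blood cell markers. On treated 2, 7 of 19 acute phase and lipocalin genes were highest, against 1 of 14 surface receptors. The share over all genes was not counted. The genes named in this paragraph were chosen after their values were seen. Cxcl1, an attractant of neutrophils, stood at 8.64, 9.02, 9.44 and 8.35 on vehicle 1 to 4 and at 6.53, 11.87, 8.45 and 7.64 on treated 1 to 4, so that treated 2 exceeded the next array 5.41-fold. Cxcl2, a related attractant, stood at 9.92 on treated 2 and at 3.56 to 7.42 elsewhere. Il1b, the cytokine interleukin 1 beta, was at 10.83 on treated 2 and 9.29 on vehicle 1, which had high S100a9 as well, and at 5.14 to 7.28 on the others. Il6, the cytokine that drives the acute phase response, was at 7.05 on treated 2 and between 3.41 and 3.94 on the other 7 arrays. Socs3 and Stat3, which act downstream of it, were at 7.06 and 11.25 on treated 2, above 4.80 to 5.43 and 9.04 to 10.04 elsewhere. Lcn2 did not share this, with 8.77 on treated 2, and vehicle 2, high in S100a8 and S100a9, was at 7.08 for Il1b and 5.32 for Cxcl2. Without treated 2 the S100a8 and S100a9 differences were −0.73 and −0.91 (limma adjusted p = 0.9999 for both).

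**Figure D5:**
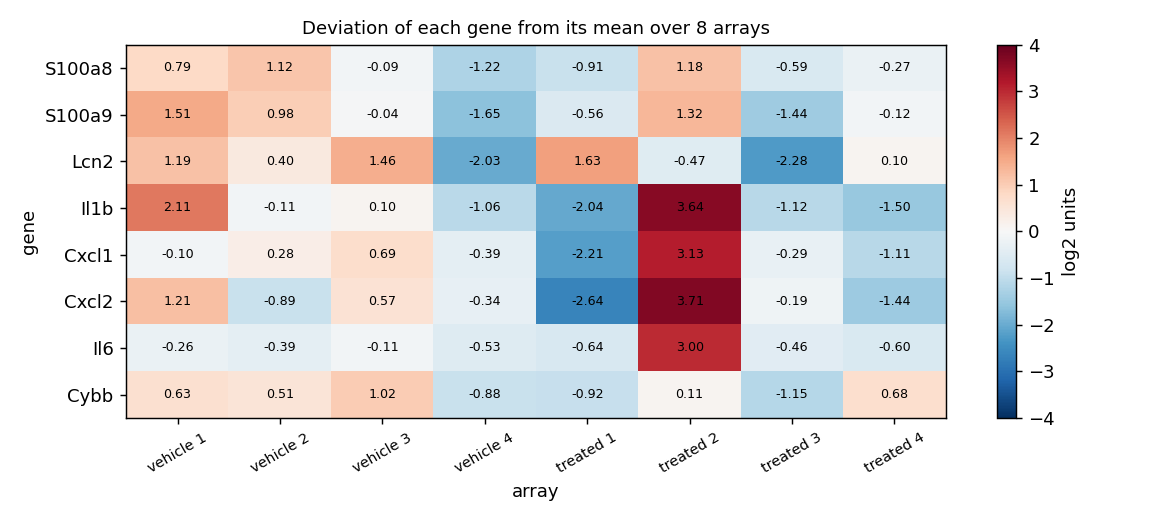
Deviation of each gene from its own mean over the 8 arrays, in log2 units (red above, blue below). Treated 2 is high for S100a8, S100a9 and the cytokine genes Il1b, Cxcl1, Cxcl2 and Il6 but not for Lcn2. The near-identical vehicle 4 and treated 3 are low for S100a8, S100a9, Lcn2 and the oxidase subunit gene Cybb. Treated 1 is low as well for S100a8 (−0.91), S100a9 (−0.56) and Cybb (−0.92), but high for Lcn2 (1.63). Cybb and the cytokine genes were chosen after their values were seen.

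None of the markers of other cells passed the adjusted threshold (0 in each list), and the part of their differences in the members' values was not tested. At an unadjusted p under 0.05 in limma, 6 of 9 mast cell, 4 of 8 endothelial and 0 of 10 macrophage and Kupffer markers were lower, against 4.75% of all genes in either direction. The monocyte, lymphocyte, blood cell and stellate lists each had 2 lower, and the hepatocyte list had 1 higher. Monocyte markers were lower in treated livers at 8 of 10 (median −0.21, list means 7.59 to 8.17 in vehicle and 7.13 to 7.89 in treated), with Ccr2 dim. Blood cell markers were lower at 5 of 7 (median −0.13, list means 5.15 to 5.61 and 4.98 to 5.14), led by the globin gene Hbb, which averaged 10.75 ± 0.91 and 8.94 ± 0.59. Lymphocyte markers were lower at 7 of 10 (median −0.17, 4.37 to 4.86 and 4.27 to 4.57), with Ms4a1 and Gzmb dim. Mast cell markers were lower at 9 of 9 (median −0.70), with Kit and Fcer1a dim. Their list means were 5.96, 5.86 and 5.92 on vehicle 1 to 3 but 4.34 on vehicle 4, within the treated range of 4.22 to 4.49. Endothelial markers were lower at 8 of 8 (median −0.67). As a list they averaged 7.65, 7.64 and 7.64 on the vehicle arrays 1 to 3, against 6.51 on vehicle 4. The treated range was 6.47 to 6.63, but its lower end was treated 3, the near-identical array. Treated 1, 2 and 4 stood at 6.62, 6.54 and 6.63, just above vehicle 4. For both lists vehicle 4 thus stood nearer the treated arrays than vehicle 1 to 3, and without both near-identical arrays their medians were −0.95 and −0.90. Lower too were stellate and myofibroblast markers at 7 of 8 (median −0.74, 7.77 to 8.89 and 7.28 to 8.33). Hepatocyte markers were lower at 6 of 11 (median −0.02). The neutrophil marker list, members included, had 5 of 8 genes lower and a median of −0.10, and its means ran from 4.55 to 5.59 in vehicle and from 4.72 to 5.41 in treated livers.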

How the data were processed

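RNA of frozen liver was amplified into biotinylated cRNA with a T7-oligo(dT) primer, per the labels' protocols, so signal depends on distance from the 3′ end. The authors deposited log2 values processed with affy and RMA, per the submitters' processing notes; the sources used here give no versions, settings or genome build. RMA draws differences of dim probe sets towards 0. Values were used as deposited. Detection calls were not used. The 57 control probe sets were left out, leaving 31042, of which 20826 had 1 symbol, 436 several and 9780 none listed. Precision is limited by the number of arrays, 4 per group.

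The model was limma 3.58.1 (R 4.3.3), lmFit and eBayes on all 8 arrays without covariates, with Benjamini-Hochberg adjustment over all probe sets. Pairs of members were tested by exact permutation. In simulated data with 200 probe sets changed by 2 log2 units among 31042, limma recovered 188 with 12 false calls. The changed probe sets were drawn at random from all, with noise independent between probe sets and between arrays. No near-identical arrays in opposite groups were simulated. The recovery therefore does not show what would be found with such a pair, or for genes as variable as S100a8, S100a9 and Lcn2. Text names every member, up to 3 genes per list with the smallest unadjusted p, marker genes and the 3 genes most like each member. Members, lists and tests were chosen with earlier results of these data known. Alternatives were other normalizations, filters, variance models, array weights, blocks, mean probe sets and arrays left out.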

Additional observations from a re-analysis of the deposited data

Results flagged for a closer look

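In each group of 4 arrays, the highest or lowest value was set against the others by Dixon's gap ratio. Of 132 groups of 66 named genes, 13 (9.85%) passed its 95% critical value, while chance flags about 5%, and 10 of the genes had been chosen after their values were seen. None of the members was among them (0). On treated 2 the far values were Il6 at 7.05, Il1b at 10.83, Socs3 at 7.06 and Hamp at 13.49, all high. On vehicle 4 they were Cma1, mast cell chymase, at 3.70 and Alas2, an erythroid enzyme, at 4.59, both low, and on treated 3 Alas2 at 4.90, high. On vehicle 3 they were Hamp at 11.74 and Ppbp at 3.78, both low, and Stat3 at 10.04, high. Single high values were Fcnb at 4.61 on vehicle 1, Cxcl6 at 4.87 on vehicle 2 and the T cell receptor gene Cd3g at 5.45 on treated 4.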

How the results depend on the processing

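The number of member probe sets called stayed at 0 under every alternative run. Over all probe sets, the 0 called became 3 without both near-identical arrays and lay between 0 and 11 with 1 array left out, with the 11 reached without vehicle 4. With 1 array left out the differences ran from −0.75 to 0.031 for S100a8, −1.02 to 0.036 for S100a9, −1.27 to 0.16 for Lcn2, −0.15 to −0.04 for Csf3r, −0.081 to 0.12 for Mmp8 and 0.02 to 0.19 for Ncf1. The other settings, filters included where a member passed them, left the sign of all 54 differences computed. Filters, variance models, blocks and mean probe sets could not turn a sign, since they left each member's difference unchanged. Only the normalizations, array weights and leaving out both near-identical arrays could have turned it. The cause of the reversals was not tested. With a filter at the 40th percentile the median of secondary and tertiary granule genes was −0.51. With a filter at a mean of 6 it was −0.39, that of primary granule genes −0.66 and that of other S100 genes −0.53. These medians moved because the filters took dimmer genes out of the lists. Array weights moved the differences of S100a8, S100a9, Lcn2 and Mmp8 to −0.51, −0.67, −0.79 and 0.088. The correlation of S100a8 and S100a9 passed at r = 0.931 with 8 separate points, that of S100a9 and Lcn2 turned to −0.77 and that of Lcn2 and Csf3r from −0.09 to 0.858 without the 2 farthest points. The replicate block gave 0 called probe sets and 785 at an unadjusted p under 0.05, against 1220 without it. Same-numbered arrays deviated together at r = −0.11, 0.04, −0.12 and −0.62, and 1 of 8 arrays correlated best with its own number, so the numbers were not taken to pair the rats. Brightness limits Csf3r and Mmp8. Ncf1 was not dim by the cut used, but its mean of 4.79 lay only at percentile 43.6 of all probe sets.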

Other observations

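Slpi, a protease inhibitor of secretions and neutrophils chosen after its values were seen, stood at 9.64, 8.21, 8.89 and 5.58 on vehicle 1 to 4 and at 5.92, 7.56, 5.21 and 7.42 on treated 1 to 4. Its lowest arrays were the near-identical pair, as for S100a9 and Lcn2. Cebpd, a transcription factor of the C/EBP family also chosen after its values were seen, was highest on treated 2 at 8.50 and stood at 6.14 to 7.77 elsewhere.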
